A study of Homo sapiens with 10 samples.

Results

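The single-cell clones Cl1 and Cl10 of the A253 line were set against each other. Both were made by the same edit, a CRISPR/Cas9 deletion of exon 2 of DUSP1, and the study describes both as heterozygous for it. It chose them because neither had DUSP1 protein by western blot, and it proposes inactivating indels in wild-type alleles as a possible reason. A253 is an established cell line from a human salivary gland squamous cell carcinoma (SG-SCC), and all cells were grown in DMEM with fetal bovine serum. RNA of Cl1 and of Cl10 was sequenced in 2 libraries each, so 4 of the 10 samples of the series enter the comparison, and the contrast is always Cl10 minus Cl1. The 2 libraries of sgTomato, A253 cells with a guide RNA against dTomato, are given only beside the clones and were not in the fit. Each group of edited cells is 1 clone, and while the study states that its knockdown experiments were repeated, neither the labels nor its account of the sequencing says whether the 2 libraries of a clone came from separate cultures. The p-values therefore measure the spread between these libraries, and a difference between the clones cannot be told apart from one that any pair of A253 clones would show.

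DUSP1 is a nuclear phosphatase that removes phosphate from the MAP kinases ERK, JNK and p38. It is itself an immediate-early gene, switched on by the kinases that it silences. Squamous carcinomas keep keratinocyte programmes, namely basal keratins, TP63 and SOX2 in self-renewing cells and cornified envelope genes in differentiating ones.

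DUSP1 (ENSG00000120129) spans chr5:172768096-172771195 in hg38, is read from the minus strand and has 4 exons in its canonical GENCODE transcript. The edit used 2 guides, 1 in intron 1 and 1 in intron 2, and both match the plus strand, so they run against the gene. They are shown because the sequence between them is the one change that the clones were made to share. The PAM, the motif next to the site that Cas9 needs, is in capitals and the guide in lower case. The sites are chr5:172770388-172770407 for the intron 1 guide and chr5:172769936-172769955 for the intron 2 guide.
Intron 1 guide: gctggaagtttacatcggaaAGG
Intron 2 guide: ggaactaagcccatttgcctGGG
The predicted cuts, 3 bases before each PAM, lie 452 bases apart. Between them lies exon 2 (chr5:172770161-172770306), given here on the strand of the gene. It is 146 bases long and coding throughout, and its length is not a multiple of 3.
DUSP1 exon 2: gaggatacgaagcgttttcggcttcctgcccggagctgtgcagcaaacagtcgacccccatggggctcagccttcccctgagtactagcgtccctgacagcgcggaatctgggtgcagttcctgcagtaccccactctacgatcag

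The DUSP1 transcript was lowest in Cl1. Its level, given as CPM (read counts scaled to an equal library total, with TMM factors), was 5.33 and 6.05 CPM in Cl1 and 8.59 and 7.19 CPM in Cl10, against 13.1 and 11.1 CPM in the control. The clones did not overlap, as was the case for 74.4% of all genes tested, and all 4 clone libraries lay below both control libraries. By edgeR's quasi-likelihood test, DUSP1 was higher in Cl10 than in Cl1 (log2 fold change 0.48, SE 0.13, adjusted p = 0.00817). Without Cl10 replicate 1 the value was 0.35 and no longer passed (adjusted p = 0.111). The median of the 50 nearest tested genes was above 0 as well, and relative to it DUSP1 differed by 0.26 on the log2 scale. Gene counts sum over exons and do not show whether a transcript holds exon 2 or yields protein.

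The clones differed in a large share of what they expressed. Of 19818 genes tested, 4932 (24.9%) were higher and 4774 (24.1%) lower in Cl10 at an adjusted p under 0.05 (edgeR, Benjamini-Hochberg). With the additional demand of an absolute log2 fold change above 1, which is what "called" means below, 886 genes (4.47%) were called higher and 1245 (6.28%) called lower. The levels of the clones did not overlap for 14739 genes (74.4%). The median log2 fold change over all genes was -0.0012. The called genes included 546 protein-coding genes and 233 long noncoding RNAs among those higher, and 764 and 315 among those lower. Of all 19818 genes tested, 14321 were protein-coding and 3428 were long noncoding RNAs. The control lay between the clones for 506 of the 886 genes called higher and for 716 of the 1245 called lower, compared with 31.3% of all genes tested. The control lay nearer to Cl1 than to Cl10 for 632 of the 886 and 810 of the 1245, and the share over all genes was not counted.

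The libraries held 47016495 to 70986593 counts. Within a clone they differed by more than counting noise, since their counts differed at an unadjusted p under 0.05 (chi-square test) in 47.3% of 15213 genes for Cl1 and in 23.6% of 14925 genes for Cl10. Mitochondrial transcripts held 4.14% and 4.12% of the counts in Cl1 and 2.74% and 2.72% in Cl10, and ribosomal RNA 0.877% and 0.807% in Cl1 and 0.493% and 0.467% in Cl10.

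**Figure D1:**
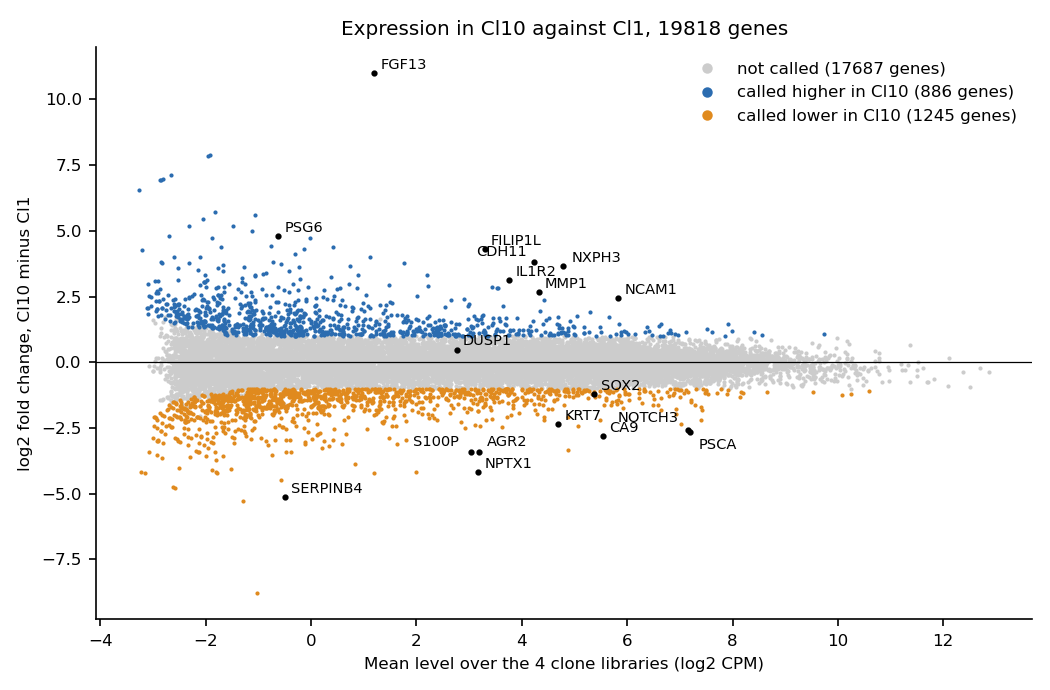
Log2 fold change of Cl10 minus Cl1 (y axis) against the mean level over the 4 clone libraries in log2 CPM (x axis) for the 19818 genes tested, with 886 called higher in blue and 1245 called lower in orange. FGF13, which had no count in Cl1, is the highest point, and its fitted fold depends on the prior count.

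Among called genes with a mean of at least 5 CPM, the 15 with the largest fold upward in Cl10 began with FILIP1L, CDH11 and NXPH3. FILIP1L, which encodes a filamin-interacting protein (chromosome 3, 99828811 to 100114513), had 0.913 and 0.982 CPM in Cl1 and 17.7 and 19.7 CPM in Cl10 (log2 fold change 4.31, SE 0.135, adjusted p = 8.17e-10). CDH11, a cadherin of mesenchymal cells, had 2.83 and 2.17 CPM in Cl1 and 34.2 and 36.2 CPM in Cl10 (log2 fold change 3.80, SE 0.11, adjusted p = 6.26e-10). The control was near Cl1 for FILIP1L, with 1.44 and 1.07 CPM, but between the clones for CDH11, with 18.7 and 18.5 CPM. NXPH3, a secreted neurexin ligand, had 4.11 and 3.99 CPM in Cl1 and 52.7 and 49.1 CPM in Cl10 (log2 fold change 3.65, SE 0.0831, adjusted p = 9.89e-11), with 3.81 and 3.97 CPM in the control, close to Cl1. NCAM1, the neural cell adhesion molecule, was the most abundant of the 15 genes with the largest rise, with 17.5 and 17.9 CPM in Cl1 and 94 and 97.3 CPM in Cl10 (log2 fold change 2.44, SE 0.0642, adjusted p = 2.99e-10).

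Another 3 genes of the 15 encode a receptor, a receptor partner and a signalling protein. IL1R2, the decoy receptor that binds interleukin-1 without signalling, had 2.84 and 2.71 CPM in Cl1 and 23.3 and 25.4 CPM in Cl10 (log2 fold change 3.13, SE 0.104, adjusted p = 8.17e-10). RAMP1, which forms part of the receptor for calcitonin gene-related peptide, had 2.95 and 2.73 CPM in Cl1 and 21 and 19.7 CPM in Cl10 (log2 fold change 2.84, SE 0.105, adjusted p = 1.89e-09). RASGRF1, an exchange factor that loads RAS with GTP, had 2.57 and 2.59 CPM in Cl1 and 17.4 and 20.5 CPM in Cl10 (log2 fold change 2.88, SE 0.121, adjusted p = 6.19e-09). The clones did not overlap in any of the 3, as in 74.4% of all genes tested. The control lay between them for IL1R2, with 13.2 and 15.6 CPM, close to Cl1 for RAMP1 and below both for RASGRF1. The collagenases MMP1 and MMP13, which cut fibrillar collagen, were both higher in Cl10, MMP1 with 4.7 and 6.13 CPM in Cl1 and 35 and 33.9 CPM in Cl10 and MMP13 with 6.54 and 7.46 CPM in Cl1 and 37.7 and 34.4 CPM in Cl10. FST, whose product follistatin binds activin, had 2.32 and 2.43 CPM in Cl1 and 11.3 and 13.7 CPM in Cl10 (log2 fold change 2.40, SE 0.137, adjusted p = 5.56e-08), and the control, with 18.1 and 18.2 CPM, was above both clones. The remaining 5 of these 15 genes were SLC43A3 (2.84), the transcription factor ZBED2 (2.37), the steroid sulfatase STS (2.23), SHISAL1 (2.14) and the mitochondrial carrier SLC25A48 (2.13), as log2 fold changes.

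Of the 15 largest falls, NPTX1, a secreted pentraxin of neurons, was the first, with 17.1 and 17.1 CPM in Cl1 and 1.04 and 0.849 CPM in Cl10 (log2 fold change -4.16, SE 0.135, adjusted p = 8.17e-10). The control was near Cl1, with 13.5 and 13.5 CPM. S100P and AGR2, a calcium-binding protein and a protein disulfide isomerase of secretory epithelium, followed. S100P had 13.9 and 16.1 CPM in Cl1 and 1.23 and 1.59 CPM in Cl10 (log2 fold change -3.42, SE 0.152, adjusted p = 9.80e-09). AGR2 had 17.8 and 15.5 CPM in Cl1 and 1.62 and 1.49 CPM in Cl10 (log2 fold change -3.41, SE 0.127, adjusted p = 2.09e-09), and here it was Cl1 that stood apart, the control having 0.86 and 1.18 CPM. Both genes lie in stretches of chromosomes 4 and 7 whose genes were lower in Cl10 as a whole, described below.

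NOTCH3, a receptor of the Notch pathway, had 230.3 and 261 CPM in Cl1 and 38.7 and 43.1 CPM in Cl10 (log2 fold change -2.58, SE 0.0835, adjusted p = 8.17e-10), and the control lay between with 122 and 77.3 CPM. FOXN1, a transcription factor of keratinocytes and thymic epithelium, had 9.78 and 15.9 CPM in Cl1 and 2.25 and 2.24 CPM in Cl10 (log2 fold change -2.51, SE 0.212, adjusted p = 1.18e-06). The 2 Cl1 libraries were further apart for FOXN1 than those of Cl10, but both were above every Cl10 library. PSCA, a surface glycoprotein of epithelia, had 229.8 and 277 CPM in Cl1 and 39.1 and 41.6 CPM in Cl10 (log2 fold change -2.65, SE 0.0926, adjusted p = 1.10e-09). NECTIN4, an adhesion protein of epithelial junctions, had 53.7 and 58.6 CPM in Cl1 and 10.7 and 10.2 CPM in Cl10 (log2 fold change -2.42, SE 0.0788, adjusted p = 8.17e-10). GPNMB, a transmembrane glycoprotein of chromosome 7, had 189 and 249 CPM in Cl1 and 43.5 and 41.6 CPM in Cl10 (log2 fold change -2.36, SE 0.112, adjusted p = 1.45e-08), and its control level, 32.8 and 32.4 CPM, was below both clones. The others were ALDH3B2 (-2.47), IKZF2 (-2.41), PNCK (-2.37) and TTC39A (-2.25), as log2 fold changes, and CA9, KRT7 and IFI27, which are described with their groups.

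**Figure D2:**
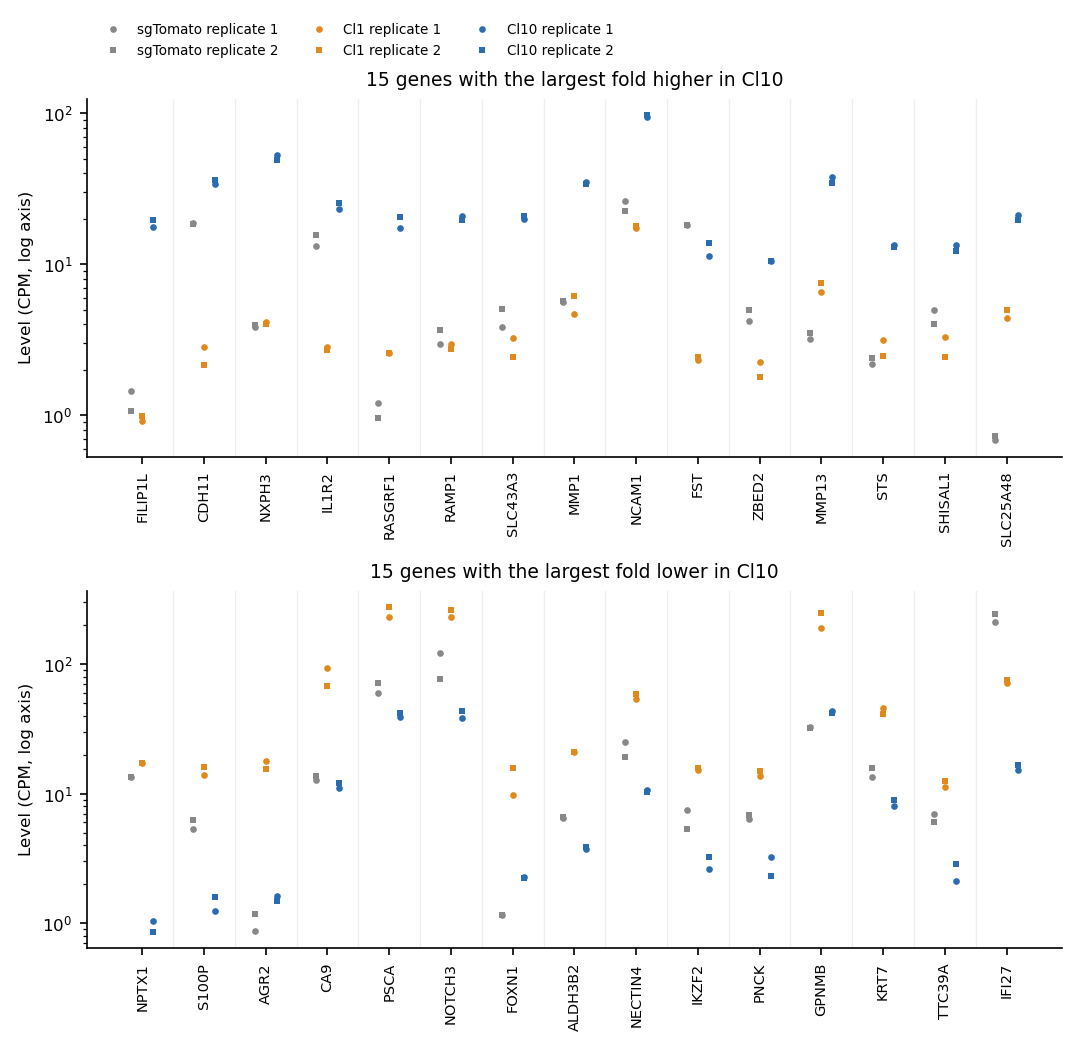
Level of each of the 15 genes with the largest fold in either direction (mean of at least 5 CPM) in every library, in CPM on a log axis, with circles for replicate 1 and squares for replicate 2. The 2 libraries of a clone sit close together in nearly every gene, and the control (grey) is found near Cl1, near Cl10, between them or outside both, depending on the gene.

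In the gene lists described from here on, higher and lower count members at an adjusted p under 0.05. Over all genes tested these shares were 24.9% and 24.1%, and 4.47% and 6.28% were called. Simple epithelial keratins are the filaments of glandular and other single-layered epithelium. The list of them used here also held the hair keratins KRT81, KRT83 and KRT86. Of its 7 tested members, 6 were lower in Cl10 and none was higher, with a median log2 fold change of -1.24. KRT8 had 1652 and 1392 CPM in Cl1 and 635 and 647 CPM in Cl10 (log2 fold change -1.24, SE 0.0763, adjusted p = 9.99e-08), and its partner KRT18 had 428 and 359 CPM in Cl1 and 238 and 235 CPM in Cl10 (log2 fold change -0.73, SE 0.0735, adjusted p = 4.93e-06). KRT7, a keratin of ductal epithelium, had 45.6 and 41 CPM in Cl1 and 8.03 and 8.99 CPM in Cl10 (log2 fold change -2.35, SE 0.0845, adjusted p = 1.49e-09), and KRT19 had 2405 and 2212 CPM in Cl1 and 1421 and 1327 CPM in Cl10 (log2 fold change -0.75, SE 0.0686, adjusted p = 2.41e-06). KRT18 and KRT19 were named after their values were seen. The control was with Cl1 for KRT8 but nearer to Cl10 for KRT7, with 1531 and 1734 CPM and 13.5 and 15.6 CPM respectively. All but KRT19 lie in the keratin cluster of chromosome 12, in a window of 51 genes with a median of -0.58, and relative to the 50 genes nearest each member the median of the list was -0.74. KRT81 (-1.38) and KRT86 (-1.31) are near-identical copies whose reads may have been split.

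The basal and stress keratins changed less. KRT5 and KRT14, the pair of basal keratinocytes, were the most abundant, KRT5 with 6029 and 5961 CPM in Cl1 and 4716 and 4451 CPM in Cl10 (log2 fold change -0.38, SE 0.0686, adjusted p = 5.09e-04) and KRT14 with 4118 and 4169.8 CPM in Cl1 and 4772 and 4507 CPM in Cl10 (log2 fold change 0.17, adjusted p = 0.0631, not past the test). KRT5 did not pass without Cl10 replicate 2 (-0.34), and relative to its 50 nearest genes it had a value of 0.19. Of 9 tested members, 5 were lower and 2 higher at an adjusted p under 0.05, among them KRT16 (-0.85), KRT17 (-0.78) and KRT15 (-0.51) lower and KRT6B (0.91) higher. Without Cl10 replicate 2 the count lower was 3. The suprabasal and mucosal keratins were higher in 4 of 10 and lower in 4 (2 and 1 called). KRT1, an early keratin of differentiation, was higher in Cl10, with 3.86 and 4.63 CPM in Cl1 and 14.5 and 12.1 CPM in Cl10 against 0.326 and 0.468 CPM in the control (log2 fold change 1.66, SE 0.132, adjusted p = 7.17e-07). KRT10, its partner, had 29.5 and 27.1 CPM in Cl1 and 43 and 34.8 CPM in Cl10 (log2 fold change 0.46, SE 0.0891, adjusted p = 9.37e-04). KRT13 (-0.63) and KRT80 (-0.72) were lower, and KRT78, with 0.838 and 1.42 CPM in Cl1 and 0.324 and 0.29 CPM in Cl10, was called lower (-1.85, adjusted p = 0.00113). The median of the 50 nearest genes was -0.57 for KRT80, -0.52 for KRT78 and 0.02 for KRT13. KRT79 had 0 counts in both Cl1 libraries and 33 and 24 in Cl10, which makes it at least 10.1-fold higher, with a floor of 3 counts per library. KRT78 and KRT79 were named after their values were seen.

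The cornified envelope list had 26 tested members. It holds proteins of the cross-linked shell of a dying keratinocyte and other genes of its formation and shedding, such as the enzymes TGM1 and KLK5. Of the tested members, 15 were higher in Cl10 and 5 lower (8 and 4 called), against 24.9% and 24.1% of all genes, with a median log2 fold change of 0.63. The summed level of the list hardly differed, with 615 and 617 CPM in Cl1 and 614 and 610 CPM in Cl10. KLK5, a protease of desquamation, had 0.823 and 0.822 CPM in Cl1 and 7.52 and 9.11 CPM in Cl10 (log2 fold change 3.34, SE 0.174, adjusted p = 2.72e-08). The small proline-rich genes SPRR4 (0.808 and 0.541 CPM in Cl1 and 3.24 and 3.33 CPM in Cl10) and SPRR3 (1.23 and 0.882 CPM in Cl1 and 2.47 and 2.38 CPM in Cl10) were both called higher. IVL, the scaffold involucrin, had 6.04 and 6.96 CPM in Cl1 and 10.2 and 10.8 CPM in Cl10 (log2 fold change 0.70, SE 0.114, adjusted p = 2.53e-04), both clones above 0.371 and 0.543 CPM in the control. HRNR had a log2 fold change of 1.03 (adjusted p = 0.00843) and FLG of 0.61 (adjusted p = 0.0285), the latter no longer past the test under 6 alternatives and the former not with DESeq2. The members that were lower were the transglutaminase TGM1, which makes the cross-links, (14.1 and 13.5 CPM in Cl1 and 5.59 and 4.62 CPM in Cl10; log2 fold change -1.43, SE 0.113, adjusted p = 6.67e-07) and, named after their values were seen, TGM5 (-1.17), CASP14 (-3.12), DSC1 (-2.52) and EVPL (-0.69), of which TGM5, CASP14 and DSC1 were under 2 CPM in every clone library. Several SPRR2 genes are near-identical, so their separate counts are uncertain.

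Inflammatory cytokines and chemokines moved mostly upward, with 17 of 28 tested members higher and 7 lower (11 and 4 called) and a median of 0.58. IL1B had 1.14 and 1.24 CPM in Cl1 and 7.43 and 6.3 CPM in Cl10 (log2 fold change 2.54, SE 0.167, adjusted p = 1.76e-07) and IL1A 0.928 and 0.722 CPM in Cl1 and 3.68 and 3.36 CPM in Cl10 (log2 fold change 2.08, SE 0.207, adjusted p = 4.58e-06). These are the ligands of the receptor family to which the decoy IL1R2 belongs, and for all 3 genes Cl1 lay below both Cl10 and the control, which had 19.4 and 18.4 CPM for IL1B and 9.45 and 7.91 CPM for IL1A. IL32 had 1 and 0.902 CPM in Cl1 and 4.74 and 4.02 CPM in Cl10 (log2 fold change 2.20, SE 0.189, adjusted p = 1.35e-06), and the control was near Cl1. CXCL8, a neutrophil attractant (1.21), and CXCL14, a chemokine of epithelia (1.07), were also called higher, both named after their values were seen. CCL2 had 2 counts over both Cl1 libraries and 99 over both Cl10 libraries, a ratio of 54.0 with a 95% interval from 14.6 to 452 that covers counting error only. CCL5, a T cell attractant, went the other way, with 12.8 and 12.4 CPM in Cl1 and 4.62 and 4.99 CPM in Cl10 (log2 fold change -1.39, SE 0.107, adjusted p = 5.63e-07).

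The Notch pathway list was mostly lower, with 13 of 21 tested members lower and 4 higher and a median of -0.40. Beside the receptor NOTCH3, NOTCH1 had 133 and 132 CPM in Cl1 and 69.9 and 70.5 CPM in Cl10 (log2 fold change -0.91, SE 0.0572, adjusted p = 1.18e-07), and NOTCH2 had a value of -0.11 that did not pass (adjusted p = 0.18). Of the ligands, DLL1 was lower (-0.75), with a median of -0.48 for its 50 nearest genes. The glycosyltransferases that modify the receptors were all lower, MFNG with 4.76 and 4.55 CPM in Cl1 and 1.23 and 1.47 CPM in Cl10 (log2 fold change -1.79, SE 0.173, adjusted p = 3.59e-06), LFNG with -1.31 and RFNG with -0.65. All 3 lie in stretches of chromosomes 22, 7 and 17 that were lower as a whole, and relative to the 50 nearest genes MFNG had -1.23 and LFNG -0.59. For RFNG the median of those genes was -0.48, most of its own fall. The coactivator MAML3 had 2.15 and 2.43 CPM in Cl1 and 0.801 and 0.621 CPM in Cl10 (log2 fold change -1.67, SE 0.237, adjusted p = 8.69e-05). The targets HES1 (-0.40), HES2 (-1.27) and HES4 (-0.49) were lower. NOTCH4 was called higher, from 0.628 and 0.401 CPM in Cl1 and 1.31 and 1.68 CPM in Cl10 (log2 fold change 1.51, SE 0.296, adjusted p = 0.00103). The genes of this list other than NOTCH3, NOTCH4, MFNG and MAML3 were named after their values were seen.

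**Figure D3:**
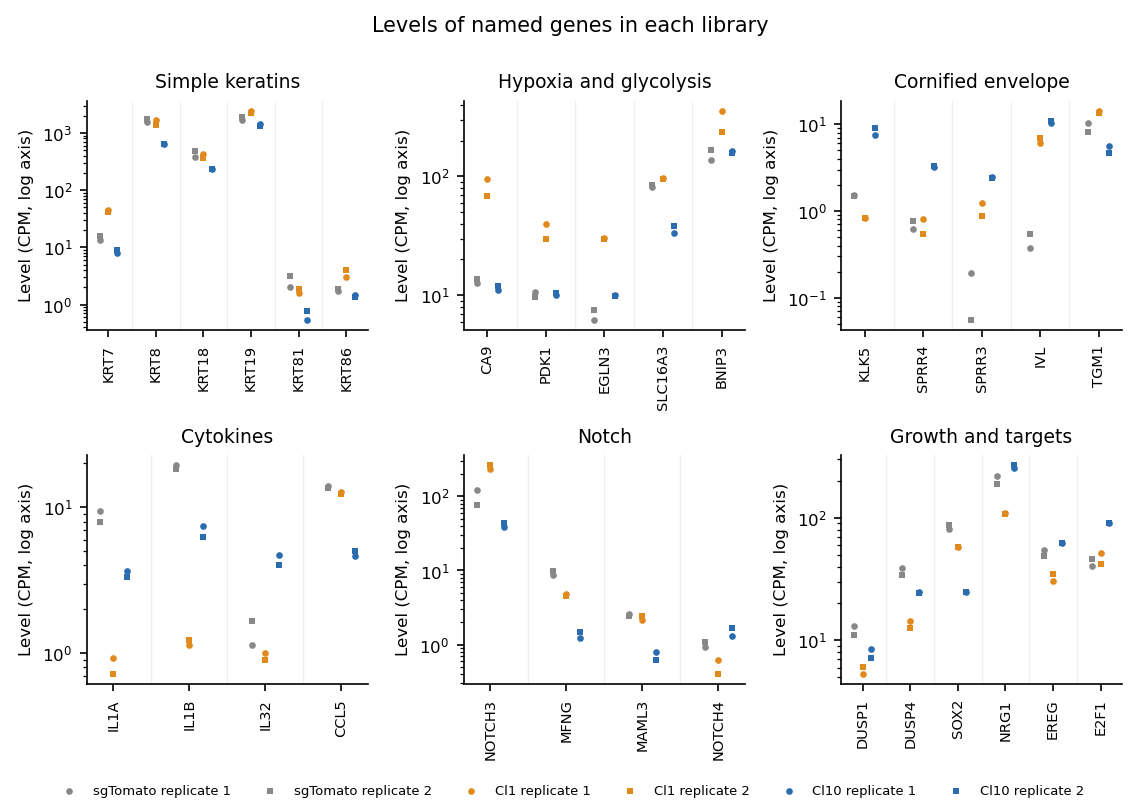
Levels of genes named in the text in every library, in CPM on log axes, with 1 panel per group, circles for replicate 1 and squares for replicate 2. Cl10 is below Cl1 for all simple keratins and hypoxia genes shown, above it for IL1A, IL1B and IL32 and below it for CCL5, and the control (grey) sides with Cl1 for KRT8 and with Cl10 for CA9.

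Genes of glycolysis and of the hypoxia response were lower in Cl10 in 24 of 29 tested members and higher in 1, with a median of -0.73. The summed level of the list was 21308 and 16808 CPM in Cl1 and 12323 and 12066 CPM in Cl10. In the control it was 12636 and 13634 CPM, nearer to Cl10, although single members differed in this. CA9, the carbonic anhydrase used as a mark of hypoxia, had 94.3 and 68.2 CPM in Cl1 and 11.1 and 12 CPM in Cl10 (log2 fold change -2.82, SE 0.121, adjusted p = 7.13e-09), and the control was near Cl10 with 12.7 and 13.6 CPM. PDK1, a pyruvate dehydrogenase kinase, had 40.1 and 29.6 CPM in Cl1 and 10.1 and 10.4 CPM in Cl10 (log2 fold change -1.77, SE 0.116, adjusted p = 1.68e-07). The oxygen sensor EGLN3 had 30.2 and 29.7 CPM in Cl1 and 10.1 and 9.92 CPM in Cl10 (log2 fold change -1.58, SE 0.0772, adjusted p = 1.69e-08). SLC16A3, a lactate exporter, had 96.3 and 95.4 CPM in Cl1 and 33.5 and 38 CPM in Cl10 (log2 fold change -1.42, SE 0.0686, adjusted p = 1.59e-08), with the control near Cl1. The glycolytic enzymes PGK1 (-1.11), TPI1 (-0.86), GAPDH (-0.73) and LDHA (-0.66) were lower, and CA12 was the 1 member higher (0.81); these 5 were named after their values were seen. VEGFA, a hypoxia target and angiogenic factor, was lower by less (-0.27, adjusted p = 0.014), and not past the test under 3 alternatives. The libraries of Cl1 differed from each other on this list, with a median of -0.35 on the log2 scale for replicate 2 minus replicate 1. The number called lower was 7, but 14 without Cl1 replicate 2 and 6 without Cl1 replicate 1.

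The mitochondrially encoded genes, which specify subunits of the respiratory chain, were lower in 12 of 13 members, with a median of -0.63, and none was called. The share of ribosomal RNA moved the same way, as given above, and its part in this result was not tested. MT-CO2 had 5866 and 5479.7 CPM in Cl1 and 3064 and 3000.2 CPM in Cl10 (log2 fold change -0.90, SE 0.0679, adjusted p = 4.90e-07), and MT-ND4 had 4174 and 4186 CPM in Cl1 and 2437 and 2467 CPM in Cl10 (log2 fold change -0.77, SE 0.0662, adjusted p = 1.39e-06). For both the control was with Cl1, at 5052 and 5861 CPM for MT-CO2. Genes of cholesterol and fatty acid synthesis were lower in 18 of 30 and higher in 2, with a median of -0.22, FASN, the fatty acid synthase, having 1806 and 1864 CPM in Cl1 and 1011 and 1017 CPM in Cl10 (log2 fold change -0.85, SE 0.0653, adjusted p = 5.44e-07). Without Cl10 replicate 1 the count lower was 12.

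Genes of S phase and mitosis were higher in 27 of 39 members and lower in none, with a median of 0.32 and none called. E2F1, which drives entry into S phase, had 52 and 41.6 CPM in Cl1 and 90.8 and 89.9 CPM in Cl10 (log2 fold change 0.95, SE 0.0799, adjusted p = 1.14e-06), and CCNE1, the cyclin of that step, had 8.26 and 8.1 CPM in Cl1 and 14.6 and 15.2 CPM in Cl10 (log2 fold change 0.87, SE 0.0925, adjusted p = 8.32e-06). TYMS, which makes thymidylate, had 30.3 and 22.8 CPM in Cl1 and 47.4 and 48.1 CPM in Cl10 (log2 fold change 0.85, SE 0.0962, adjusted p = 1.41e-05). The libraries of Cl1 differed here by as much as the clones, with a median of -0.35 for replicate 2 minus replicate 1. Without Cl1 replicate 1, 34 were higher and none lower, and without Cl1 replicate 2, 26 were higher and 8 lower. The CDK inhibitors and p53 targets went both ways, 10 of 22 lower and 5 higher, with CDKN1A, the p21 inhibitor, at 185 and 206 CPM in Cl1 and 119 and 111 CPM in Cl10 (log2 fold change -0.76, SE 0.0719, adjusted p = 2.88e-06) and MDM2 at -0.79.

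Of the 10 MAP kinase phosphatases, 4 were higher in Cl10, DUSP1 among them, and 1 was lower, with a median of 0.12 and none called. Over all genes tested, 24.9% were higher and 24.1% lower. DUSP4, a nuclear relative of DUSP1, had 14.3 and 12.7 CPM in Cl1 and 24.9 and 24.2 CPM in Cl10 (log2 fold change 0.86, SE 0.081, adjusted p = 2.86e-06), both clones below 39.1 and 33.9 CPM in the control. DUSP6, the cytoplasmic ERK phosphatase, had 15.6 and 11.8 CPM in Cl1 and 19.2 and 19.6 CPM in Cl10 (log2 fold change 0.50, SE 0.108, adjusted p = 0.00206), both above 7.14 and 8.3 CPM in the control. DUSP9, on the X chromosome, was the member lower, with 36 and 29.1 CPM in Cl1 and 19.6 and 18.2 CPM in Cl10 (log2 fold change -0.78, SE 0.0906, adjusted p = 1.64e-05). Without Cl1 replicate 1, 3 were lower.

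The immediate-early genes and feedback inhibitors of ERK did not move together, 9 of 24 being lower and 5 higher. FOS, a partner in AP-1, had 19.97 and 15.3 CPM in Cl1 and 6.44 and 5.9 CPM in Cl10 (log2 fold change -1.51, SE 0.121, adjusted p = 7.62e-07), and EGR1, a zinc-finger factor induced by ERK, had 24.2 and 25.8 CPM in Cl1 and 10.2 and 8.22 CPM in Cl10 (log2 fold change -1.43, SE 0.103, adjusted p = 3.56e-07). The feedback inhibitor SPRY1 had 4.49 and 3.15 CPM in Cl1 and 1.04 and 1.2 CPM in Cl10 (log2 fold change -1.78, SE 0.215, adjusted p = 2.29e-05). FOSL1, a later AP-1 member, was higher, with 45.5 and 34.7 CPM in Cl1 and 77.4 and 75.7 CPM in Cl10 (log2 fold change 0.93, SE 0.0902, adjusted p = 3.60e-06), and JUN had 40.5 and 36.7 CPM in Cl1 and 69.1 and 74.6 CPM in Cl10 (log2 fold change 0.90, SE 0.066, adjusted p = 4.01e-07; named after its values were seen). For FOS and EGR1 the control was nearer to Cl10, with 2.66 and 3 CPM and 9.88 and 9.56 CPM. Without Cl10 replicate 1, 5 genes of the list were lower.

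Ligands and receptors of the EGF family were higher in 6 of 14 and lower in 5, against 24.9% and 24.1% of all genes tested. NRG1, a ligand of ERBB3 and ERBB4, had the largest fold, with 109 and 107 CPM in Cl1 and 252 and 266 CPM in Cl10 (log2 fold change 1.27, SE 0.0606, adjusted p = 1.53e-08). EREG (0.94) and HBEGF (0.94), ligands of EGFR, were higher without being called. The receptors EGFR (-0.32), ERBB2 (-0.26) and ERBB3 (-0.58) and the ligands AREG (-0.26) and NRG4 (-0.84), named after their values were seen, were lower. Leaving out either Cl10 library left 2 members lower. In the TGF-beta and BMP list 14 of 33 were higher and 8 lower (6 and 2 called), and FST has been described above. INHBB, a subunit of inhibins and activins, was called higher, with 4.62 and 4.63 CPM in Cl1 and 11 and 10.9 CPM in Cl10 (log2 fold change 1.25, SE 0.108, adjusted p = 1.41e-06). GDF15, a stress-induced ligand, was called lower, with 1.44 and 1.92 CPM in Cl1 and 0.409 and 0.476 CPM in Cl10 (log2 fold change -1.91, SE 0.291, adjusted p = 1.48e-04), as was BMP5 (-1.91).

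SOX2, the self-renewal transcription factor, was lower in Cl10 than in Cl1, with 58.2 and 58.1 CPM in Cl1 and 24.9 and 25 CPM in Cl10 (log2 fold change -1.22, SE 0.0617, adjusted p = 2.32e-08), and both clones were below 80.9 and 87.1 CPM in the control. ZNF750, a factor of keratinocyte differentiation, was also called lower, with 3.43 and 3.89 CPM in Cl1 and 0.818 and 1.01 CPM in Cl10 (log2 fold change -2.00, SE 0.206, adjusted p = 6.28e-06). TP63, the master factor of squamous epithelium, was higher, with 350.1 and 366 CPM in Cl1 and 467 and 459 CPM in Cl10 (log2 fold change 0.37, SE 0.0627, adjusted p = 3.25e-04), and KLF4 had -0.04 (adjusted p = 0.568). Over the whole list, 7 of 19 were higher and 7 lower. SOX2 lies within the stretch of chromosome 3 described below, and relative to its 50 nearest genes it had a value of -0.90, which is not past the limit of 1.

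The study names 24 genes in its text, some for these clones and some for cells edited in SOX2. The first were chosen on these samples and are not independent evidence. Of the 24, 11 were higher in Cl10 and 6 lower (3 and 1 called). Among those not yet described, the lymphangiogenic factor VEGFC had 51.5 and 46.7 CPM in Cl1 and 80.9 and 79.8 CPM in Cl10 (log2 fold change 0.71, SE 0.0602, adjusted p = 1.18e-06), while PDGFB, a mitogen of mesenchymal cells, had 17.1 and 16.3 CPM in Cl1 and 10.3 and 11 CPM in Cl10 (log2 fold change -0.65, SE 0.0881, adjusted p = 6.19e-05). The control lay between the clones for VEGFC and above both for PDGFB. The median of the nearest genes was 0.05 for VEGFC. For PDGFB it was -0.59, most of its own fall. TGFB2, a TGF-beta ligand, was higher (0.51, adjusted p = 0.00315), as was the Polycomb subunit BMI1 (0.57, adjusted p = 6.09e-05). LOXL2, an enzyme that modifies collagen, had 382 and 323 CPM in Cl1 and 277 and 297 CPM in Cl10 (log2 fold change -0.29, SE 0.0747, adjusted p = 0.00592), and did not pass without Cl10 replicate 1 (adjusted p = 0.117). HMGA2 (-0.16), FN1 (-0.12) and KRT4 (0.37) did not pass, although HMGA2 did without Cl1 replicate 2 (-0.35).

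Epithelial adhesion genes were lower in 16 of 30 and higher in 8, with a median of -0.26, although 5 were higher without Cl10 replicate 1 and 4 without Cl10 replicate 2. PKP1, a desmosomal plakophilin, had 382 and 399.5 CPM in Cl1 and 183 and 176 CPM in Cl10 (log2 fold change -1.12, SE 0.0633, adjusted p = 5.18e-08). The grainyhead factors GRHL3 (-1.08) and GRHL1 (-1.03), which maintain epithelial genes, were called lower. CDH1, encoding E-cadherin, had 646 and 589.7 CPM in Cl1 and 432 and 449 CPM in Cl10 (log2 fold change -0.49, SE 0.0643, adjusted p = 4.92e-05). Laminins and basement membrane genes were lower in 13 of 22 and higher in 2 (4 without Cl1 replicate 1), with a median of -0.37, COL7A1, the anchoring fibril collagen, having 189 and 198 CPM in Cl1 and 91.5 and 87.3 CPM in Cl10 (log2 fold change -1.11, SE 0.0622, adjusted p = 4.85e-08). Integrins were higher in 6 of 18 and lower in 5, against 24.9% and 24.1% of all genes tested. The 1 integrin called higher was ITGB3 (1.73, named after its values were seen), which was under 1 CPM in every clone library. ITGB8 (-1.15), ITGA7 (-1.09) and ITGA5 (-1.05) were called lower, and ITGA2, a collagen receptor, was higher without being called (0.84). Relative to their 50 nearest genes the falls were -0.30 for ITGB8, -0.67 for ITGA7 and -0.64 for ITGA5, none past the limit of 1. Without Cl10 replicate 1 only 1 integrin was called lower.

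The mesenchymal list had no common direction, with 13 of 39 higher and 14 lower. SERPINE2, a protease inhibitor, had 40.7 and 37.7 CPM in Cl1 and 86.9 and 88.1 CPM in Cl10 (log2 fold change 1.16, SE 0.0592, adjusted p = 2.36e-08), FBN1, encoding fibrillin, 1.11 and 0.782 CPM in Cl1 and 4.64 and 4.85 CPM in Cl10 (log2 fold change 2.31, SE 0.194, adjusted p = 1.12e-06), and COL5A2 6.52 and 7.2 CPM in Cl1 and 1.81 and 1.66 CPM in Cl10 (log2 fold change -1.98, SE 0.152, adjusted p = 5.54e-07). TWIST1, which represses epithelial genes, had 7.78 and 7.2 CPM in Cl1 and 4.69 and 4.04 CPM in Cl10 (log2 fold change -0.77, SE 0.125, adjusted p = 2.46e-04), but lies on the short arm of chromosome 7, and relative to its neighbours' median it had a value of 0.03. VIM and ZEB1, an intermediate filament and a repressor of CDH1, did not pass. VIM had 2.42 and 1.78 CPM in Cl1 and 1.53 and 1.86 CPM in Cl10 (adjusted p = 0.247), both clones far below 68.1 and 81.4 CPM in the control, and ZEB1 had 0.314 and 0.16 CPM in Cl1 and 0.409 and 0.435 CPM in Cl10 (adjusted p = 0.157). Without Cl10 replicate 1, 8 members were lower, and without Cl1 replicate 2 the members called higher were 3 in place of 5.

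Interferon-stimulated genes were divided, with 19 of 47 higher and 17 lower and a median of 0.11. IFI27 had 72.2 and 74.9 CPM in Cl1 and 15.2 and 16.5 CPM in Cl10 (log2 fold change -2.21, SE 0.0709, adjusted p = 8.17e-10), both clones below 212 and 246 CPM in the control, and OASL had 297 and 263 CPM in Cl1 and 62.6 and 58.7 CPM in Cl10 (log2 fold change -2.20, SE 0.0689, adjusted p = 8.17e-10). DDX60, a helicase of the RNA-sensing response, was called lower (-1.40). GBP1, a GTPase induced by interferon gamma, was called higher, with 9.34 and 9.38 CPM in Cl1 and 28.1 and 27.3 CPM in Cl10 (log2 fold change 1.57, SE 0.0798, adjusted p = 2.35e-08). Among antigen processing genes 9 of 18 were higher and 2 lower (4 without Cl1 replicate 1), with NLRC5, the transactivator of MHC class I, at 40.2 and 36.9 CPM in Cl1 and 74.5 and 69.9 CPM in Cl10 (log2 fold change 0.91, SE 0.0627, adjusted p = 2.49e-07) and TAP1 at 0.77. S100 genes were lower in 10 of 16 and higher in none, with S100A9, a subunit of calprotectin, at 64.3 and 78 CPM in Cl1 and 25 and 21.1 CPM in Cl10 (log2 fold change -1.62, SE 0.102, adjusted p = 1.18e-07). Matrix metalloproteinases and kallikreins were higher in 8 of 24 and lower in 6, MMP11 (-1.78) being called lower while MMP1, MMP13 and KLK5 were called higher.

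**Figure D4:**
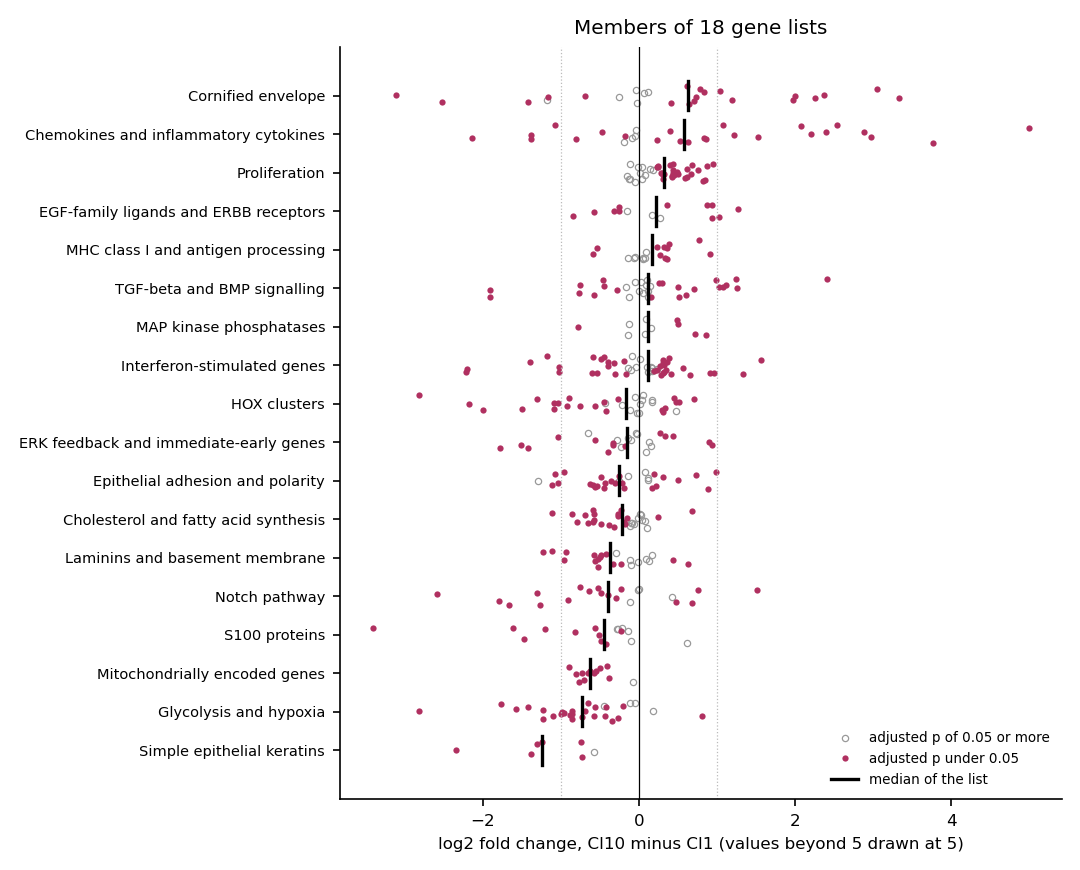
Log2 fold change of Cl10 minus Cl1 (x axis) of every tested member of 18 gene lists (rows), filled where the adjusted p was under 0.05 and open otherwise, with a black bar at the median of each list and dotted lines at -1 and 1. Medians run from -1.24 for the simple epithelial keratins to 0.63 for the cornified envelope, most lists hold members on both sides of 0, and values beyond 5 are drawn at 5.

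Positional identity and imprinting were also compared, beside shares of 24.9% higher and 24.1% lower over all genes tested. Of the HOX genes, which encode position along the body axis, 15 of 34 were lower and 7 higher, 8 of them called lower and none called higher. Without Cl10 replicate 2, 4 were higher. HOXA9 had 16.7 and 16.1 CPM in Cl1 and 5.73 and 5.84 CPM in Cl10 (log2 fold change -1.50, SE 0.0958, adjusted p = 1.37e-07), and HOXD10 had 1.84 and 2.23 CPM in Cl1 and 0.563 and 0.435 CPM in Cl10 (log2 fold change -2.00, SE 0.265, adjusted p = 4.82e-05). The HOXA cluster lies on the shifted short arm of chromosome 7, and relative to the neighbours of each gene the median of the list changed from -0.16 to 0.18. Of 16 imprinted genes tested, 6 were lower and 2 higher, 1 of the latter called, DIRAS3 (1.51, under 1 CPM, named after its values were seen). Without either Cl10 library none was higher, without Cl1 replicate 1 there were 3 and without Cl1 replicate 2 there was 1. H19, a maternally expressed noncoding RNA, had 6.91 and 4.05 CPM in Cl1 and 1.96 and 1.99 CPM in Cl10 (log2 fold change -1.48, SE 0.219, adjusted p = 1.20e-04), and PLAGL1, a paternally expressed growth regulator, had 36.4 and 35.4 CPM in Cl1 and 12.4 and 13.4 CPM in Cl10 (log2 fold change -1.47, SE 0.0754, adjusted p = 2.41e-08).

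Most of the remaining lists had members on both sides, and over all genes tested 24.9% were higher and 24.1% lower. Among WNT ligands and targets, 7 of 25 were higher and 8 lower, WNT10B (-1.46) and WNT6 (-1.22) being called lower, but 5 and 4 were lower without Cl10 replicate 1 and without Cl10 replicate 2. Mucins and secretory genes were lower in 6 of 9 and higher in 2, with SLPI, a protease inhibitor of saliva, higher (16.9 and 18 CPM in Cl1 and 46.3 and 43.6 CPM in Cl10; log2 fold change 1.37, SE 0.0723, adjusted p = 2.96e-08) and MUC1 lower (-0.71). Apoptosis regulators were higher in 12 of 29 and lower in 10, with BIRC3, an inhibitor of caspases, called higher (1.32) and BIK, a killer protein of the BCL2 family, called lower (-1.02). NRF2 targets and detoxification genes were lower in 11 of 29 and higher in 6, with CYP1B1 (-1.46) and the exporter ABCC2 (-1.44) called lower, but without Cl10 replicate 2, 6 were lower and 3 higher, and without Cl10 replicate 1, 7 were lower. Heat shock and unfolded protein genes were lower in 11 of 26 and higher in 5, HSPA1A (1.10) being called higher, although it shares most of its sequence with HSPA1B, and ATF4 being lower (-0.84), and without Cl1 replicate 2, 8 were higher. Clustered protocadherins, whose gamma members share exons, were higher in 8 of 41 (5 without Cl10 replicate 1 and 4 without Cl10 replicate 2) and lower in 5. MHC class II genes were lower in 1 of 4, HLA-DMA (-0.72). Of 2 cancer-testis genes above the filter, neither passed.

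The labelled cell type was checked against markers. All 9 squamous epithelial markers were expressed, and their summed level was 15800 and 15554 CPM in Cl1 and 14229 and 13532 CPM in Cl10. Of these 9, 6 were lower in Cl10 and 1 higher, and without Cl10 replicate 2, 3 were lower. Markers of other cells were low, and in bulk RNA fewer cells of a type and less RNA per cell cannot be told apart. The 12 leukocyte markers summed to 17.9 and 14.6 CPM in Cl1 and 15.3 and 13.7 CPM in Cl10, with CD3D at 0 counts. The 9 fibroblast markers summed to 46.5 and 48.5 CPM in Cl1 and 30.5 and 32.0 CPM in Cl10, mostly COL1A1 and COL3A1, with LUM at 0. The 8 endothelial markers summed to 9.72 and 10.97 CPM in Cl1 and 10.6 and 9.44 CPM in Cl10, with KDR at 0. The 9 markers of melanocytes and Schwann cells summed to 36.2 and 34.5 CPM in Cl1 and 46.9 and 47.3 CPM in Cl10, mostly MITF (log2 fold change 0.59), PMEL being called lower (-1.45), and TYR and S100B were at 0. The 15 myoepithelial and acinar markers summed to 22.2 and 22.1 CPM in Cl1 and 42.1 and 42.4 CPM in Cl10, mostly the oxytocin receptor OXTR (log2 fold change 1.17, SE 0.0686, adjusted p = 7.38e-08). ACTA2, the smooth muscle actin of myoepithelium, was under 1 CPM in every clone library and called lower (-1.39, adjusted p = 0.0219; named after its values were seen), and STATH and HTN1 were at 0.

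Very few genes were detected in 1 clone alone. With at most 3 counts in each library of 1 clone and at least 1 CPM in both libraries of the other, 2 genes were detected in Cl10 only and 1 in Cl1 only. FGF13 (ENSG00000129682), an intracellular member of the fibroblast growth factor family on chromosome X from 138614727 to 139222777, had 0 and 0 counts in Cl1 and 256 and 233 in Cl10, which makes it at least 87.5-fold higher against a floor of 3 counts per library. The control held 3 and 0 counts. PSG6, a pregnancy-specific glycoprotein on chromosome 19 from a family of similar genes, had 2 and 3 counts in Cl1 and 75 and 59 in Cl10, a ratio of 29.3 with a 95% interval from 12.2 to 91.5. SERPINB4, a squamous cell carcinoma antigen on chromosome 18, had 78 and 80 counts in Cl1 and 2 and 2 in Cl10, a ratio of 36.2 in favour of Cl1 with a 95% interval from 13.9 to 134. The control held 1.51 and 1.11 CPM of SERPINB4, whose copy SERPINB3 is near-identical. Floors and intervals cover counting error only.

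Whole stretches of chromosomes differed between the clones. In the order of the genome, 19651 tested genes were placed in 392 windows of 48 to 54 neighbouring genes, and the median log2 fold change of each window was taken. These medians ran from -0.94 to 0.48 with an SD of 0.223. Between the 2 libraries of a clone the same medians had an SD of 0.0435 in Cl1 and 0.0213 in Cl10 and never left the range from -0.144 to 0.107. There were 19 windows below -0.5 and none above 0.5. The 19 held 949 genes, 4.83% of those placed, but 239 of the 1245 genes called lower (19.2%) and 14 of those called higher. In all 19, Cl10 departed further from the control than Cl1 did.

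The longest run covered the start of chromosome 7, from 19018 to 45112047 in hg38, with 6 windows in a row and 300 genes. Of these genes, 273 had a negative log2 fold change, the median was -0.74, and 221 were lower at an adjusted p under 0.05. The median against the control was -0.08 in Cl1 and -0.82 in Cl10. Single Cl10 libraries set against the mean of Cl1 gave -0.74 and -0.73. AGR2, GPNMB, TWIST1, HOXA9 and ITGB8 lie in this run. The lowest window of the genome was the 50 genes from BZW2 (16646131) onward, at -0.94, with 49 genes negative.

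The start of chromosome 4 had the lowest median of the runs, over 2 windows from 53286 to 8493531. Of their genes, 97 were negative, the median was -0.88, and S100P is among them. Against the control, the median was 0.07 in Cl1 and -0.89 in Cl10. Single windows or pairs below -0.5 lay on chromosome 3 from 147386046 to 156674446 (-0.73), on chromosome 6 from 149818757 to 159272108 (-0.66), on chromosome 12 from 51047962 to 53102345 (-0.58) and from 56752161 to 62622213 (-0.55), and at 3 places on chromosome 17, the last of them from 81900958 to 83106910 (-0.70). On chromosome 22, 3 windows from 29554808 to 39152680 had a median of -0.55 over 144 genes, of which 131 were negative.

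With a lower limit of 0.2 and at least 4 windows in a row, both chosen after the values were seen, some of these extended further. Chromosome 17 was shifted from 48724763 to its end over 9 windows (450 genes, median -0.49), chromosome 22 over 9 windows (435 genes, -0.45), chromosome 12 over 7 windows (357 genes, -0.39) and chromosome 3 from 136862208 to 186825521 over 5 windows (250 genes, -0.46), the last of which contains SOX2. The 1 stretch that was higher covered chromosome 5 from 34905260 to 76708132 (196 genes, median 0.26), of which 142 genes were positive. On the long arm of chromosome 1 a stretch of 250 genes from 145233001 to 156007070 had a median of -0.27, and in a longer one the control sided with Cl10. Over 8 windows from 180632022 to 248919946 the 400 genes had a median of -0.33, while the median against the control was 0.35 in Cl1 and 0.02 in Cl10. The highest window of all was on chromosome 5. Its 49 genes from KIAA1191 to NHP2 (176346062 to 178153894), between DUSP1 and the end of the long arm, had a median of 0.48, with -0.45 in Cl1 and 0.03 in Cl10 against the control, and the next window to the end had 0.38. The window of DUSP1 itself had 0.19. The others of the 6 highest were the end of chromosome 18 (0.45), the first window of chromosome 8 (0.37) and 2 windows of chromosome 9 (both 0.34). Relative to the 50 nearest genes, 19 of the 153 called genes that belong to the gene lists or are named were no longer past the limit of 1, and 17 of these were lower in Cl10. Beside SOX2, LFNG and the 3 integrins, they included KRT8 (-0.70), KRT81 (-0.81), KRT86 (-0.74), HOXA9 (-0.61), SLC16A3 (-0.79), PKP1 (-0.82) and BIK (-0.59). Gene counts do not give copy number, which was not tested.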

How the data were processed

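RNA of A253 cells was sequenced from stranded, poly(A)-based libraries. According to the study's methods, HISAT2 was used for alignment to hg38 and HTSeq for counting; the authors deposited raw counts of 58735 genes in 6 libraries. The labels name StringTie and DESeq as well. The annotation, the strand setting and the handling of multi-mapped reads are not given in the sources used here, so overlapping, antisense and near-identical genes are uncertain. Columns were matched to samples by name, and 58207 identifiers were found in GENCODE v44, which gave all positions, and these held 99.9% of the counts. The 4 other samples of the series were not used here.

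Cl10 was compared with Cl1 on these 4 libraries with edgeR 4.0.16 in R 4.3.3 (filterByExpr, TMM, estimateDisp, glmQLFit, glmQLFTest, Benjamini-Hochberg), and DESeq2 1.42.0 was an alternative. SEs were taken as the unshrunk log2 fold change, without its sign, over the root of F. CPM were scaled with TMM over the 6 libraries, and the control libraries entered no test. On simulated counts the script was tested for recovery of known changes. Library totals of 47016495 to 70986593 set a floor of 3 counts for a gene at 0.

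The members, gene lists and tests were chosen with earlier results of these data known. Named genes are the 15 called genes in each direction with the largest fold among those with a mean of at least 5 CPM, up to 4 genes of each list with the largest fold among those past an adjusted p of 0.05 with at least 1 CPM, the genes the study names, genes detected in 1 clone, and the 6 most extreme windows in each direction. Guides come from the study's list of oligonucleotides and were matched to hg38. The alternatives were other normalizations, filters, thresholds and windows, the replicate block, thinning, local subtraction and leaving out each library.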

Additional observations from a re-analysis of the deposited data

How the results depend on the processing

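No called gene changed direction under any alternative. Without the limit on the fold change, 4932 genes were higher, 4774 lower and 517 genes of the lists past the test, and with an adjusted p under 0.01 and a log2 fold change above 2 these counts were 190, 192 and 34, compared with 886, 1245 and 133. DESeq2 called 646 and 899 genes and, of the 2131 calls, 1532 were kept. Leaving out each library in turn gave 791 to 926 genes higher and 1066 to 1307 lower, and 121 to 134 genes of the lists. Relative to the 50 nearest genes, 1686 of the 2131 calls were kept. KRT5 (0.19) and TWIST1 (0.027) were among the genes not called that changed sign. EGFR, at -0.32 against a median of -0.41 for its neighbours, was another. DUSP1 ranged from 0.35 to 0.60 over the fits that left out a library, and 0.35, without Cl10 replicate 1, did not pass. With libraries scaled by their totals alone, the median of all genes moved to 0.07 and 49.0% of calls were higher, compared with 41.6%.

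With up to 10 counts allowed in the silent clone, 11 genes were detected in Cl10 only and 8 in Cl1 only, and with 5 CPM demanded 0 and 0 were. Leaving out a library gave 2 to 6 and 1 to 3 genes, the highest without Cl1 replicate 1 (6 in Cl10 only) and without Cl1 replicate 2 or Cl10 replicate 1 (3 in Cl1 only). Windows of 25 genes gave 4 windows up and 46 down, windows of 100 genes 10 down, and library totals alone 2 up and 11 down. Leaving out a library gave 0 to 1 windows up and 21 to 29 down, the latter without Cl10 replicate 2.

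Replicate numbers are shared by the clones, and the deviations of same-numbered libraries had a correlation of 0.025. This value cannot show whether same-numbered libraries shared a culture or a batch, which the labels do not say. With the replicate block, 894 genes were higher and 1269 lower, 133 genes of the lists were called and DUSP1 was at 0.48. With 2 libraries a clone, a fit that left out 1 assumed that the lone library varies like the other clone. Depth limits genes with few counts in 1 clone.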
